A study of Mus musculus with 6 samples.

Results

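Translation initiation factors are the proteins that bring the small ribosomal subunit, the initiator tRNA and the mRNA together and place the ribosome at the start codon. The set described here holds the protein-coding rows of the deposited count table whose symbol begins with Eif and a digit, with the eIF4E transporter gene Eif4enif1 left out. It has 54 genes of the 54532 in the table. They were measured by RNA-seq of poly(A) RNA from frozen mouse oocytes, prepared with a SMARTV4 kit, in 3 control libraries and 3 libraries of AMH-treated animals (AMH is anti-Müllerian hormone, a TGF-beta family hormone made by granulosa cells). All animals were C57BL/6J mice of 6 to 7 weeks, and the AMH group received 300 ng of bacterially made recombinant mouse AMH by daily intraperitoneal injection starting at 21 days of age. The labels do not say whether controls were injected, which oocyte stage was taken, how many cells went into a library, or whether libraries come from separate animals, so p-values measure only the spread between these libraries. The title of the series asks about oocyte quality after AMH, and the comparison is AMH against control.

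In initiation, eIF4E binds the mRNA cap, eIF4G and the helicase eIF4A join it to form eIF4F, and eIF3 links that complex to the small subunit. eIF2 carries the initiator tRNA as a GTP complex, eIF2B recharges it, and 4 kinases that phosphorylate its alpha subunit lower the supply of active eIF2. Fully grown oocytes transcribe little and depend on the regulated translation of stored mRNA, in which eIF4E and its binding proteins are known to take part.

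Count totals ran from 66392859 to 72109080 per library. All 16 oocyte markers had counts in all 6 libraries, with sums of 24771 to 31444 CPM (counts scaled by library size after TMM normalisation) in controls and 14187 to 24084 CPM in AMH libraries. All 18 cumulus and granulosa markers also had counts in every library, with sums of 537, 306 and 2890 CPM in controls 1, 2 and 3 and 2884, 2538 and 2806 CPM in AMH 1, 2 and 3. Control 3 was therefore as high as the AMH libraries for markers of the somatic cells around the oocyte, and AMH 3 lay nearest to the controls for oocyte markers. Summed macrophage and leukocyte markers were 5.003 to 27.9 CPM in controls and 65.4 to 86.8 CPM in AMH libraries, and erythroid markers were 1.11 to 5.64 CPM and 22.8 to 357 CPM. Oviduct epithelium markers (21.1 to 169 and 137 to 712 CPM) and theca and stroma markers (12.3 to 80.3 and 49.5 to 141 CPM) overlapped between groups, and endothelial markers were 183 to 222 and 105 to 177 CPM with Emcn at 0 counts throughout. The part of other cell types in the differences below was not tested, and in such bulk libraries fewer cells of a type and less RNA per cell cannot be told apart.

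Initiation factor transcripts moved in both directions between the groups, by role and by level. Subunits of eIF3, the 4E-BP repressors Eif4ebp1 and Eif4ebp2, Eif4h and part of eIF2B had higher values in AMH oocytes, and over all 21 members with AMH above control the fold was 1.41 to 3.02. Under TMM scaling, abundant factors either lay lower (Eif2b1, Eif4e3, Eif2ak1) or were nearly level (Eif1, Eif4a1, Eif4g2). Of 52 genes that passed the filter on low counts, 28 had a positive and 24 a negative log2 fold change of AMH over control, and 53.8% positive compares with 49.7% of all 18868 tested genes. All 3 AMH libraries lay above all 3 controls for 21 members, 40.4% against 26.9% of all tested genes, and below them for 7 members, 13.5% against 23.3%. The median log2 fold change was 0.18 over the members and -0.01 over all tested genes.

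None of these differences passed the test. The edgeR quasi-likelihood test called 0 of 52 members at an adjusted p of 0.05, as it called 0% of all 18868 genes, and the lowest adjusted p among members was 0.116. At an unadjusted p under 0.05 it had 20 members higher and 7 lower in AMH libraries, where 20.2% of all tested genes were higher and 17.3% lower. Of the 53 members with a count above 0, DESeq2 called 12 higher and 1 lower. Of all genes that it gave an adjusted p, a narrower base, it called 15.7% higher and 5.71% lower. Both limma-voom and limma on FPKM (fragments scaled by gene length and library size) called 0. The calls turned on control 3 and AMH 3. Without control 3, edgeR called 19 members higher and 5 lower (26.8% and 11.2% of all genes), and without AMH 3 it called 1 higher, Eif3k, and 3 lower, Eif2ak1, Eif2b1 and Eif4e3 (1.45% and 6.73% of all genes). Without both it called 21 higher and 12 lower (29.4% and 21.6% of all genes), a choice made after the results were known.

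**Figure D1:**
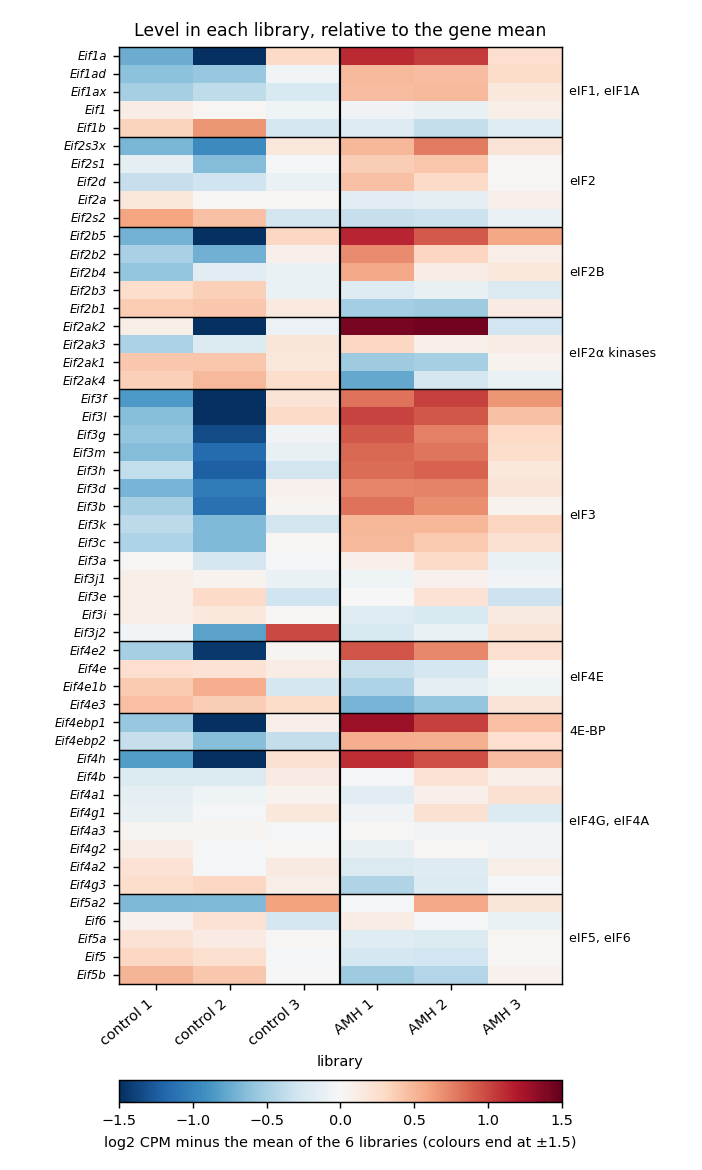
Level of the 52 tested initiation factor genes (rows, grouped by role) in the 6 libraries (columns), as log2 CPM minus the mean of the gene over the 6 libraries (colours end at 1.5 in either direction). In the heat map 9 eIF3 genes are blue in controls 1 and 2 and red in AMH 1 and 2, while control 3 and AMH 3 are pale for most genes.

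Directions are relative to the TMM scaling. The split of positive and negative fold changes was 28 and 24 with TMM, 39 and 13 with library size only, 25 and 27 with upper-quartile scaling, and 51 and 1 when libraries were scaled to the summed oocyte markers, which was tried once the data had been seen. The median of all tested genes moved along, at -0.01, 0.26, -0.23 and 0.74, and the members' median was 0.18, 0.46, -0.03 and 0.94. A change of scaling shifts the log2 fold changes of all genes by nearly the same amount. The margin of the members' median over that of all genes was therefore bound to stay nearly equal under the 4 scalings, and its constancy is not a separate result. With oocyte-marker scaling Eif4e3 was the 1 tested member with a negative fold change, so the lower direction given below for any other member does not hold there.

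Levels per length differed widely between members. In controls the highest mean FPKM was that of Eif2b1 with 366 ± 39.0, followed by Eif1 with 255 ± 18.3, Eif5a with 223 ± 18.3, Eif4e3 with 146 ± 10.4 and Eif4a1 with 134 ± 7.04 (SD, n = 3 each). Eif4e3 and Eif4a1 did not differ beyond their spread, and their order turned in control 3 and in all 3 AMH libraries. These 5 genes made up 55.4% to 59.0% of the members' summed FPKM in controls, 46.1% and 46.7% in AMH 1 and 2, and 55.2% in AMH 3. From 49 to 50 members had at least 1 FPKM in each library. At the other end stood Eif5a2, Eif2ak2 and Eif3j2, each with a mean under 1 FPKM, and 2 genes that were not tested. Eif2s3y, the Y-linked copy of the eIF2 gamma subunit gene, had 0 counts of 416269294 over the 6 libraries, where 3 counts would be the upper limit. Eif4ebp3 had 1 count in AMH 2, 3 counts in AMH 3 and 0 elsewhere.

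Higher values in AMH libraries went with lower levels. Among the 26 tested members with a mean over 13.7 FPKM, 11 had a positive fold change (42.3%) and the median was -0.03, while 29.6% of all 3361 tested genes over that level were positive, with a median of -0.45. Among the 26 members at or below it, 17 were positive (65.4%) with a median of 0.54. All 15507 tested genes at or below it, members included, gave 54.0% and 0.15. The 21 members with AMH above control reached at most 39.8 FPKM, with a median of 9.43, and the 7 members below had a median of 29.1. Across genes, Spearman's rho between mean FPKM and log2 fold change was -0.37 over the 52 members, -0.21 over the 15249 protein-coding tested genes and -0.15 over all tested genes. For gene length it was -0.26, -0.15 and -0.01. These genes share libraries and are not independent replicates.

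**Figure D2:**
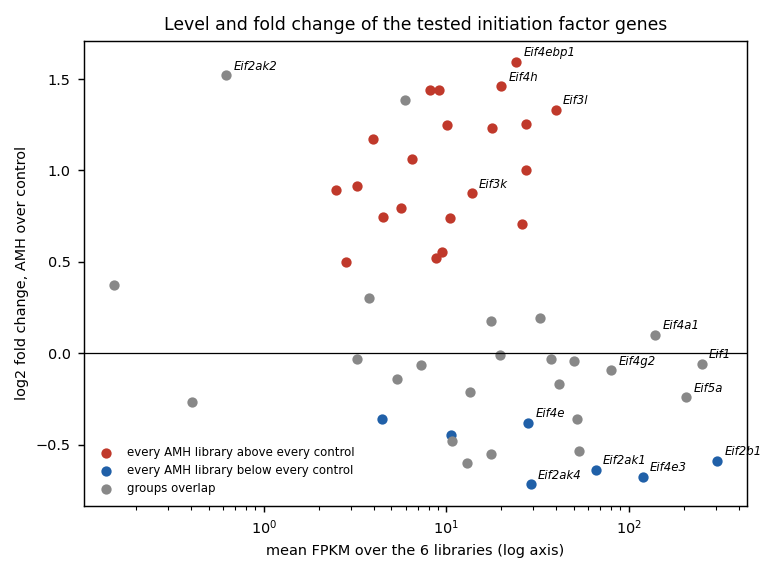
Mean FPKM over the 6 libraries (log axis) against log2 fold change of AMH over control (TMM scaling) for the 52 tested genes, with colour giving whether the groups overlapped. The 21 genes in red, with AMH above control, lie at 39.8 FPKM or less, and Eif2b1, Eif4e3 and Eif2ak1 sit at the lower right.

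Many mRNAs of the translation machinery begin with a run of C and T bases at the cap, known as a terminal oligopyrimidine tract, through which mTOR signalling controls their translation. Start-site windows of 30 bases (15 on each side of the RefSeq start, GRCm38.p6) were therefore read for the 41 tested members that matched the RefSeq promoter table. An unbroken run of at least 8 bases that are each C or T, on the transcribed strand, lay in 7 of the 41 (17.1%), against 13.9% of all 27025 genes in that table. It lay in 5 of 19 matched members with AMH above control, 2 of 5 with AMH below control, and 0 of 17 with overlapping groups. The windows of all 7 members with a run follow, with the run in capitals, first the 5 with AMH above control and then Eif4e and Eif2ak4 with AMH below, each at its second annotated start. Eif2b1 and Eif2ak1, which also lay below, come last as windows without a run.
Eif3f: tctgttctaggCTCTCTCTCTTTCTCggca
Eif3l: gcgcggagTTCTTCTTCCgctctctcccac
Eif2s3x: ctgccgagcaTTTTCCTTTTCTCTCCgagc
Eif2b5: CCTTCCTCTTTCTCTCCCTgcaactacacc
Eif2b2: tttcaccgagcggaagttgaCCTCTCTCgg
Eif4e: tcgCCCCCCCTTCaggagcggttgtgcgat
Eif2ak4: ttcgtccttccaaccaTTCTTCCCCacact
Eif2b1: cgcactcgatttccggcgccgacgagtgac
Eif2ak1: tggggcgggacttccgttggctcttgtgtt
They lie at chr7:108934400-108934429 (+), chr15:79075208-79075237 (+), chrX:94212637-94212666 (-), chr16:20498802-20498831 (+), chr12:85219466-85219495 (+), chr3:138527253-138527282 (+), chr2:118389097-118389126 (+), chr5:124579117-124579146 (-) and chr5:143817777-143817806 (+). The run spans the annotated start in Eif3f, Eif3l, Eif2s3x and Eif2b5 but not in Eif2b2, Eif4e or Eif2ak4. Eif3k, the eIF3 gene of smallest p, has no such run. The length of run was chosen after windows of members had been seen. In the 300 bases from 250 before to 50 after the start, searched on both strands, the E-box CACGTG was found in 10 of 41 members (24.4%). It was in 8.09% of all 27025 genes in the promoter table, which were not limited to genes tested here. GGCGCC, a GC-rich element that SMAD proteins of the BMP and AMH branch are known to bind, was found in 16 of 41 (39.0%) against 13.4%. By group, the E-box was in 3 of 19 members with AMH above, 1 of 5 with AMH below and 6 of 17 with overlapping groups. For GGCGCC these were 5 of 19, 2 of 5 and 9 of 17. A match only describes the sequence.

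Factors of scanning and start-codon choice split between the abundant Eif1 and the rarer eIF1A genes. Eif1, which keeps the scanning complex open (chromosome 11, 100319885 to 100322096), had 591, 558 and 524 CPM in controls 1, 2 and 3 and 525, 504 and 580 CPM in AMH 1, 2 and 3. The groups overlapped almost fully, with a log2 fold change of -0.06 ± 0.15 (SE). Eif1ax, the X-linked eIF1A gene (X, 159372178 to 159389928), had 16.7, 18.1 and 20.1 CPM against 32.6, 33.0 and 26.4 CPM. All AMH libraries lay above all controls, 1.68 times higher, with an edgeR adjusted p of 0.116. Eif1ad, which encodes an eIF1A-like domain protein, had 8.95, 9.24 and 13.4 CPM against 19.2, 18.9 and 16.6 CPM, again with no overlap (log2 fold change 0.79 ± 0.25, edgeR adjusted p = 0.116). Its exons share 428 bases with those of Banf1 on the opposite strand, which had 24087 counts to its own 6143. Of the other 2 genes, the autosomal Eif1a had 9.77 ± 6.93 CPM in control against 25.5 ± 7.61 CPM in AMH libraries (SD, n = 3 each) with control 3 above AMH 3. Eif1b had 73.7 ± 22.5 against 50.9 ± 3.49 CPM.

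The subunits of eIF2 did not share a direction. Eif2s1, the alpha subunit on which the stress kinases act (12, 78861819 to 78887010), had 39.8, 27.8 and 43.2 CPM in control and 56.5, 58.3 and 44.3 CPM in AMH libraries. The groups did not overlap, though AMH 3 was only just above control 3 (log2 fold change 0.52 ± 0.23, edgeR adjusted p = 0.138). Eif2s3x, the gamma subunit that binds GTP and the tRNA (X, 94188707 to 94212862), had 7.32, 6.03 and 13.2 CPM against 16.5, 20.2 and 13.4 CPM, with the same narrow gap between control 3 and AMH 3. Its log2 fold change was 0.92 ± 0.36 (edgeR adjusted p = 0.122). Eif2s2, the beta subunit, had the opposite sign, with 178, 161 and 97.99 CPM in control and 92.9, 95.1 and 111 CPM in AMH libraries, and control 3 lay within the AMH range. Eif2d, a factor that can deliver tRNA without GTP, had 16.7, 17.3 and 19.7 against 28.6, 25.7 and 21.5 CPM (log2 fold change 0.50 ± 0.21, edgeR adjusted p = 0.130). Its exons share 78 bases with the opposite-strand gene Rassf5, which had 44546 counts to 9180 of Eif2d. Eif2a, an alternative initiator tRNA carrier, overlapped between groups with 35.8 ± 2.28 and 32.5 ± 2.91 CPM. Opposite-strand Serp1 shares 72 exon bases with Eif2a and had 33939 counts to 14166 of Eif2a.

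Within eIF2B, the exchange factor of 5 subunits, Eif2b1 stood far apart. Eif2b1 encodes the alpha subunit, which helps the complex form a decamer (5, 124570213 to 124579131). It had 1032, 1046 and 875 CPM in control and 558, 548 and 861 CPM in AMH libraries. AMH 1 and 2 were well below the controls and AMH 3 just below control 3 (log2 fold change -0.59 ± 0.23, edgeR adjusted p = 0.122). Eif2b5, the catalytic epsilon subunit (16, 20498817 to 20509323), had 11.7, 4.07 and 23.7 CPM against 42.2, 36.2 and 28.6 CPM, 2.71 times higher with an edgeR adjusted p of 0.130. Eif2b2 and Eif2b4, the beta and delta regulatory subunits, also had all AMH libraries above all controls. Eif2b2 had 13.8, 11.7 and 20.3 CPM against 31.7, 24.3 and 20.7 CPM (log2 fold change 0.74 ± 0.29), and Eif2b4 had a log2 fold change of 0.55 ± 0.23. The exons of Eif2b4 share 204 bases with opposite-strand Snx17. Eif2b3, the gamma subunit that pairs with epsilon, was lower with 33.9 ± 5.43 CPM in control against 26.4 ± 1.10 CPM in AMH libraries (SD, n = 3 each). Control 3 and AMH 2 nearly met at 27.8 and 27.6 CPM. Per length, Eif2b1 took 94.4%, 94.8% and 91.1% of the summed eIF2B FPKM in controls and 80.9%, 83.7% and 90.1% in AMH libraries. The other 4 genes held between 0.367% and 6.29% each.

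**Figure D3:**
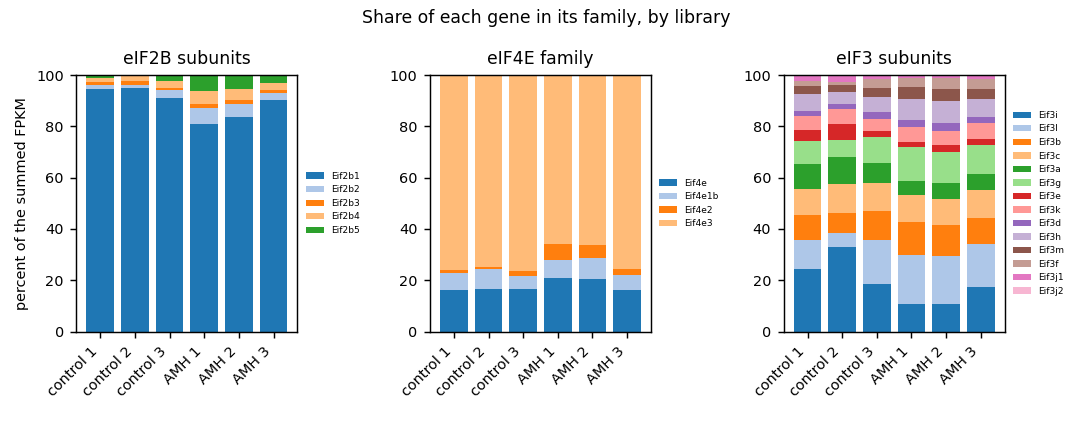
Share of each gene in the summed FPKM of its family (percent), for eIF2B, the eIF4E family and eIF3, with 1 bar per library. Eif2b1 fills 80.9% to 94.8% of the eIF2B bars, Eif4e3 fills 65.9% to 76.5% of the eIF4E bars, and the eIF3 bars have no single main gene.

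The eIF2 alpha kinases, which set off the integrated stress response, were led by those that sense haem and amino acids. Eif2ak1, also called HRI and known as the haem-regulated kinase (5, 143817788 to 143904251), had 496, 503 and 423 CPM in control and 259, 266 and 391 CPM in AMH libraries. AMH 1 and 2 lay far below the controls and AMH 3 a little below control 3 (log2 fold change -0.63 ± 0.21, edgeR adjusted p = 0.116). Eif2ak4, or GCN2, the sensor of uncharged tRNA (2, 118388618 to 118475234), had 277, 303 and 261 CPM against 128, 182 and 202 CPM. Its groups were separated in every library, with a log2 fold change of -0.72 ± 0.21 (edgeR adjusted p = 0.116), and it was the 1 member that DESeq2 called lower. Eif2ak3, or PERK, the kinase of endoplasmic reticulum stress, overlapped with 16.7, 20.2 and 26.3 against 28.7, 24.4 and 25.02 CPM. Eif2ak2, or PKR, the kinase of double-stranded RNA, was rare, with 2.48, 0.390 and 2.20 CPM in control and 6.26, 6.37 and 1.92 CPM in AMH libraries, so AMH 3 lay below 2 controls. Summed FPKM of the 4 kinases was 124, 127 and 108 in control oocytes against 68.0, 75.4 and 94.4 in AMH oocytes, most of it from Eif2ak1 and Eif2ak4. The median log2 fold change of the 4 was -0.16, and it was 0.10 with library size only and 0.55 with oocyte-marker scaling.

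Among genes around this response, 8 of 13 tested had a positive and 5 a negative fold change, with a median of 0.48. edgeR called 0 of them. At an unadjusted p under 0.05 it had 3 higher and 2 lower, beside 20.2% and 17.3% of all tested genes. DESeq2 called 3 higher and 1 lower, beside 15.7% and 5.71% of all genes with an adjusted p. Ddit3, the stress transcription factor CHOP, had 4.76, 4.29 and 5.07 CPM in control and 12.1, 8.73 and 7.11 CPM in AMH libraries (log2 fold change 0.98 ± 0.29, edgeR adjusted p = 0.116). Atf4, whose mRNA is translated when eIF2 is phosphorylated, had 56.1, 59.1 and 48.7 against 74.6, 80.8 and 54.0 CPM, and AMH 3 lay within the control range. Dnajc3, a co-chaperone known to inhibit the kinases PERK and PKR, had 616 ± 50.4 CPM in control against 383 ± 76.2 CPM in AMH libraries (SD, n = 3 each), with no overlap.

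The eIF3 subunits are the largest group, and most of them had higher values in AMH oocytes. Of 14 tested genes, 10 had a positive fold change, the median was 0.94, and 9 had all AMH libraries above all controls (64.3%, against 26.9% of all tested genes). None lay wholly below. Over the libraries left out and all other settings tried, the median stayed positive. It ran from 0.48 with the cumulus marker sum added to the model, tried once the data had been seen, to 1.70 with oocyte-marker scaling. The median of all tested genes was 0.04 with that covariate and 0.74 with oocyte-marker scaling. Fits with a library left out reuse the remaining libraries. edgeR called 0 of the 14 with all 6 libraries. At an unadjusted p under 0.05 it had 9 higher and 0 lower, beside 20.2% and 17.3% of all tested genes. Without control 3 it called 9 higher (26.8% of all genes), and DESeq2 called 6 higher (15.7% of all genes with an adjusted p). The summed FPKM of eIF3 reached 181, 141 and 223 in the control libraries against 347, 336 and 254 in AMH 1, 2 and 3. Control 3 had the highest eIF3 sum of the controls, and controls 1 and 2 were lower than control 3 in both eIF3 and cumulus marker sums. Control 3 had a cumulus marker sum of 2890 CPM beside its eIF3 sum of 223. AMH 1, 2 and 3 had cumulus marker sums of 2884, 2538 and 2806 CPM beside eIF3 sums of 347, 336 and 254. Oocyte marker sums were 28900, 31444 and 24771 CPM in controls 1, 2 and 3 and 14756, 14187 and 24084 CPM in AMH 1, 2 and 3. In the same order, oviduct epithelium sums were 68.9, 21.1 and 169 against 712, 411 and 137 CPM. Theca and stroma sums were 33.6, 12.3 and 80.3 against 107, 141 and 49.5 CPM. A relation between any of these sums was not tested.

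The octamer core of eIF3 is built from subunits a, c, e, f, h, k, l and m. Eif3k (7, 28971372 to 28981864) had 27.9, 23.2 and 30.3 CPM in control and 51.9, 51.5 and 45.9 CPM in AMH libraries. The groups were tight and far apart, with a log2 fold change of 0.87 ± 0.18 (edgeR adjusted p = 0.116). Eif3m (2, 104999656 to 105017080) had 15.2, 10.8 and 22.1 against 43.7, 41.8 and 28.8 CPM, 2.37 times higher with an edgeR adjusted p of 0.116. The exons of Eif3m share 82 bases with opposite-strand Ccdc73, which had 9505 counts to 11756 of Eif3m. Eif3h had 20.2, 11.1 and 21.5 against 46.8, 48.2 and 29.0 CPM, and Eif3f had 10.9, 5.53 and 22.8 against 34.9, 40.4 and 31.3 CPM. For Eif3l the values were 77.7, 29.6 and 148 CPM in control and 245, 232 and 165 CPM in AMH libraries. Control 2 was lowest and control 3 highest among controls for all of these core genes, and AMH 3 was the lowest AMH library. Eif3c, which contacts eIF1 and eIF5, had 72.1 ± 18.5 against 118 ± 10.7 CPM (SD, n = 3 each). In contrast Eif3a, the largest subunit and scaffold (19, 60761116 to 60790693), had 94.5, 78.3 and 91.6 CPM in control and 97.9, 114 and 86.9 CPM in AMH libraries, so the groups overlapped (log2 fold change 0.18 ± 0.17). Eif3e overlapped as well, with 51.9 ± 10.2 and 49.8 ± 8.96 CPM.

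The outer subunits b, d, g, i and j bind RNA or other factors. Eif3g had 32.5, 19.3 and 47.4 CPM in control and 93.5, 82.4 and 60.4 CPM in AMH libraries, 2.38 times higher. Eif3b, a scaffold for the outer module, had 60.5, 39.4 and 87.9 against 150.0, 139 and 88.5 CPM, and Eif3d, which can bind caps itself, had 18.5, 14.6 and 31.5 against 50.03, 50.6 and 34.4 CPM. For Eif3b the gap between control 3 and AMH 3 was under 1 CPM. Eif3i, a beta-propeller subunit and the most abundant eIF3 transcript in controls per length, overlapped, with 169 ± 8.43 CPM in control against 150.4 ± 21.3 CPM in AMH libraries. Eif3j1 and the rare Eif3j2, genes of the loosely bound j subunit, overlapped too. Opposite-strand Spg11 shares 1107 exon bases with Eif3j1 and had 6785 counts to 8143 of Eif3j1. The shares of subunits were not tested. Eif3i made up 24.4%, 32.8% and 18.4% of summed eIF3 FPKM in controls and 10.8%, 10.8% and 17.5% in AMH libraries. Eif3l made up 11.4%, 5.56% and 17.2% against 19.2%, 18.7% and 16.8%. Control 3 and AMH 3 were within 1 percentage point of each other for Eif3i, and for Eif3l control 3 was above AMH 3. Without Eif3j2, the highest of 13 subunits exceeded the lowest by 12.8 to 25.1 times in controls and 14.6 to 21.0 times in AMH libraries.

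**Figure D4:**
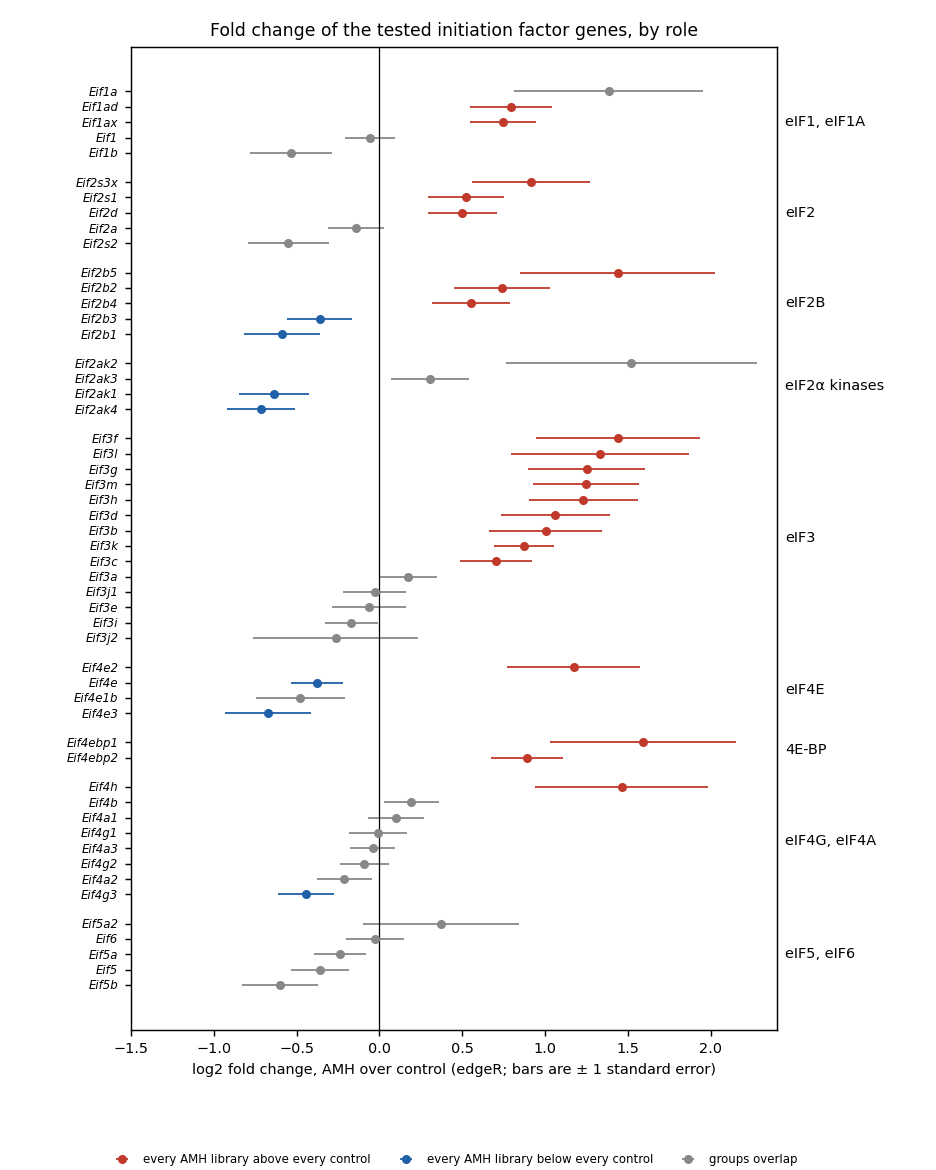
Log2 fold change of AMH over control (edgeR, TMM scaling) for the 52 tested genes, grouped by role; bars are ± 1 standard error and colour gives whether the libraries of the groups overlapped. Of 14 eIF3 genes 9 are red, while the eIF4E and kinase groups hold 2 blue genes each; apart from Eif4e3 the blue genes change sign with oocyte-marker scaling.

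Cap-binding proteins were dominated by Eif4e3 in these oocytes. Eif4e3, an atypical cap-binding relative of eIF4E (6, 99625135 to 99666771), had 406, 383 and 359.9 CPM in control and 184, 196 and 340.4 CPM in AMH libraries. AMH 1 and 2 were under all controls by a wide margin and AMH 3 by a small one (log2 fold change -0.67 ± 0.26, edgeR adjusted p = 0.122). Eif4e, the canonical cap-binding protein (3, 138526179 to 138559696), had 207, 202 and 187 against 138, 145 and 175 CPM, also without overlap. It was 1.30 times higher in controls, with an edgeR adjusted p of 0.131. Eif4e1b, the oocyte form of eIF4E found in storage complexes (13, 54783998 to 54788459), had 32.2, 35.8 and 20.4 CPM against 17.8, 22.3 and 23.4 CPM. Control 3 lay below AMH 2 and 3, so the groups overlapped (log2 fold change -0.48 ± 0.27, edgeR adjusted p = 0.203). Eif4e2, a cap-binding repressor also called 4EHP (1, 87213914 to 87240488), went the other way, with 19.1, 9.87 and 27.8 against 51.8, 44.3 and 31.9 CPM (log2 fold change 1.17 ± 0.40, edgeR adjusted p = 0.117). Per length, Eif4e3 made up 75.9%, 75.0% and 76.5% of the family in controls and 65.9%, 66.2% and 75.6% in AMH libraries. Eif4e2 made up 0.648% to 1.99% in controls and 2.38% to 6.23% in AMH libraries.

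The 4E-BP repressors, which keep eIF4E from eIF4G until mTOR phosphorylates them, were higher in AMH oocytes. Eif4ebp1 (8, 27260329 to 27276674) had 28.5, 8.84 and 44.5 CPM in control and 103, 86.3 and 57.8 CPM in AMH libraries. It had the largest fold change of the 52 tested members under TMM scaling, 3.02 times, with an edgeR adjusted p of 0.118. Control 2 was the lowest and control 3 the highest control. Eif4ebp2 (10, 61428491 to 61452661) had 11.0, 9.07 and 11.0 against 20.5, 20.4 and 16.8 CPM, with little spread among controls (log2 fold change 0.89 ± 0.22, edgeR adjusted p = 0.116). Summed FPKM of the repressors was 14.4, 5.37 and 21.0 in control oocytes against 49.9, 42.2 and 27.5 in AMH oocytes, while that of the eIF4E family was 206, 195 and 177 against 110, 116 and 168. The eIF4E family sum, most of it Eif4e3, was thus lower and the 4E-BP sum higher in the same AMH libraries, least so in AMH 3. Within that family Eif4e2 went the other way and Eif4e1b overlapped between groups. With oocyte-marker scaling the median of the eIF4E family was 0.32 in place of -0.43.

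**Figure D5:**
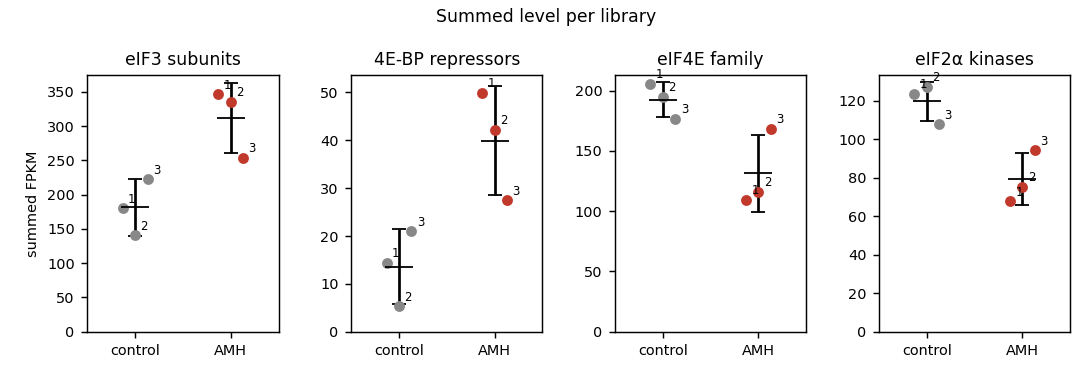
Summed FPKM per library (points, numbered by replicate) with mean and SD (n = 3 per group) for eIF3, the 4E-BP repressors, the eIF4E family and the eIF2 alpha kinases. AMH points lie above the controls for eIF3 (254 to 347 against 141 to 223) and 4E-BP and below them for the other groups, on the FPKM scaling of the authors; the medians of the 2 lower groups turn positive with oocyte-marker scaling, that of the kinases also with library size only.

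Scaffolds and helicases of eIF4F were mostly level. Eif4a1, the main initiation helicase (11, 69666936 to 69672423), had 573, 599 and 650.2 CPM in control and 560, 664 and 733 CPM in AMH libraries, and the groups overlapped. Its processed pseudogene Eif4a-ps4 had 36209 counts over the 6 libraries to 262428 of Eif4a1, so reads of the 2 copies may be shared. Eif4g1, the canonical scaffold (16, 20668313 to 20692884), had 138, 147 and 166 against 144, 174 and 130 CPM, a log2 fold change of -0.01 ± 0.17. Eif4g3, its relative (4, 137993022 to 138208508), had 145, 150 and 129 CPM in control and 88.1, 105 and 119 CPM in AMH libraries. Its groups did not overlap (log2 fold change -0.44 ± 0.17, edgeR adjusted p = 0.121). Eif4a2, the second helicase (16, 23107444 to 23114136), had 87.0, 73.0 and 82.0 against 64.2, 65.1 and 79.6 CPM, with AMH 3 inside the control range. Eif4g2, a scaffold without an eIF4E site, had 873 ± 39.9 and 820 ± 40.3 CPM, and Eif4a3, the helicase of the exon junction complex, had 111 ± 3.00 and 108 ± 2.84 CPM (SD, n = 3 each). The cofactors differed from each other. Eif4h, which stimulates the helicase (5, 134619721 to 134639490), had 51.7, 24.1 and 108 CPM in control and 199, 180 and 127 CPM in AMH libraries, 2.76 times higher (edgeR adjusted p = 0.118). Eif4b, with a like function, overlapped at 140.5 ± 19.8 and 160.4 ± 13.3 CPM.

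Of 5 late factors, 4 had a negative and 1 a positive log2 fold change under TMM scaling and none had separate groups, with a median of -0.24 that was 0.03 with library size only. Eif5b, the GTPase that joins the ribosomal subunits (1, 37998010 to 38055579), had 180.4, 169 and 127 CPM in control and 87.8, 93.5 and 133 CPM in AMH libraries. AMH 3 exceeded control 3, so the groups overlapped (log2 fold change -0.60 ± 0.23, edgeR adjusted p = 0.120). The exons of Eif5b share 1643 bases with Rev1 on the opposite strand, which had 44422 counts to 53816. Eif5, which triggers GTP hydrolysis by eIF2, had 451, 431 and 360.1 against 303, 297 and 369 CPM. Eif5a, the hypusine-bearing factor of elongation and termination (11, 69916714 to 69921958), had 591, 554 and 513 against 449, 441 and 516 CPM, with AMH 3 just above control 3. Eif6, which keeps free large subunits from joining (2, 155819832 to 155826925), had 109.5, 121 and 87.7 against 113, 102 and 97.3 CPM, a log2 fold change of -0.03 ± 0.17. The rare Eif5a2 was the 1 with a positive sign, at 0.685 ± 0.379 CPM in control against 0.888 ± 0.191 CPM in AMH oocytes (SD, n = 3 each; log2 fold change 0.37 ± 0.47).

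Ratios of 2 members within a library do not depend on scaling, and 5 pairs were compared with two-sided exact permutation tests, in which 3 against 3 libraries cannot go below 0.1. The ratio of Eif4a2 to Eif4a1 FPKM was 0.123, 0.0988 and 0.102 in control oocytes against 0.0930, 0.0797 and 0.0882 in AMH oocytes. It was the 1 pair without overlap, at the smallest p the design allows (log2 difference of AMH minus control -0.31, exact permutation p = 0.1, adjusted 0.25 over 5 pairs). Eif4g3 over Eif4g1 was 0.696, 0.671 and 0.511 against 0.403, 0.397 and 0.606, and AMH 3 lay between the controls (-0.43, exact permutation p = 0.2, adjusted 0.25). Eif5b over Eif5a (-0.37) and Eif4ebp2 over Eif4ebp1 (-0.95) gave the same exact permutation p = 0.2, adjusted 0.25. Eif4e1b over Eif4e was 0.415, 0.472 and 0.290 against 0.343, 0.409 and 0.356, with no separation (-0.06, exact permutation p = 0.9, adjusted 0.9).

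Partners and regulators of initiation split like the members. Of 21 tested, 11 had a positive and 10 a negative fold change, with a median of 0.37, and edgeR called 0. At an unadjusted p under 0.05 it had 8 higher and 6 lower, beside 20.2% and 17.3% of all tested genes. DESeq2 called 7 higher and 2 lower, beside 15.7% and 5.71% of all genes with an adjusted p. Pabpc1l, the poly(A)-binding protein of oocytes, had 34.3, 61.9 and 23.5 CPM in control and 17.2, 11.5 and 18.6 CPM in AMH libraries, all below the controls (log2 fold change -1.34 ± 0.40, edgeR adjusted p = 0.116). Eif4enif1, which binds eIF4E in stored mRNA complexes, had 662, 761 and 580.0 against 301, 390 and 499 CPM, without overlap. Paip2, which holds poly(A)-binding protein off the mRNA, had 37.6 ± 6.41 against 73.1 ± 15.6 CPM, and Gigyf1, a partner of Eif4e2, had 5.33 ± 0.524 against 10.1 ± 1.58 CPM (SD, n = 3 each). Among 11 tested genes of elongation and termination, 7 were positive and 4 negative, with a median of 0.61. edgeR called 0 of them (5 higher and 2 lower at an unadjusted p under 0.05), while DESeq2 called 5 higher and 1 lower, beside the same shares of all genes. Eef1a1, the factor that delivers tRNA in elongation, had 231, 86.8 and 386 CPM in control and 784, 916 and 583 CPM in AMH libraries. Eef2, the translocase, had 128, 69.7 and 264 against 414, 455 and 350 CPM, Eef1d had 27.2 ± 7.72 against 68.7 ± 15.8 CPM, and Eef1b2 had 27.5 ± 3.72 against 44.1 ± 3.19 CPM. With oocyte-marker scaling the log2 fold change was -0.58 for Pabpc1l, -0.0394 for Eif4enif1 and 0.0349 for Dnajc3.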

How the data were processed

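The members and gene lists were chosen with earlier results of these data known. Per the submitters' processing notes, the tools were DESeq2 1.20.0, featureCounts 1.5.0-p3 and HISAT2 2.0.5, and no source used here gives the strand setting of the counting. The labels' protocols name a directional and a non-directional kit without saying which was used. The authors deposited raw read counts for 54532 genes and, in a separate table, FPKM values, with 0 unused columns of sample values. FPKM as deposited by the authors divided counts by gene length and by an effective library size that was 0.924 to 0.997 of the total count in controls and 1.05 to 1.18 in AMH libraries.

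Counts were tested with edgeR 4.0.16 (R 4.3.3; quasi-likelihood test, TMM, filterByExpr, group as the only term, Benjamini-Hochberg adjustment over 18868 genes, threshold 0.05). Directions are AMH over control. DESeq2 1.42.0, limma-voom and limma 3.58.1 on log2(FPKM + 1) or log2(FPKM + 0.1), other scalings and filters, a replicate block and each library left out were alternatives. All members were counted by role. The rule for members given in every library took the 2 of smallest p in each role, the 5 of highest mean FPKM and a list of central factors (such as Eif4e, Eif4ebp1, Eif3a and Eif6), and other members could be named with values. From each other list it took the 2 genes of smallest p and Pabpc1l, Eif4enif1, Atf4, Ddit3, Eef1a1 and Eef2. Gene positions are from the deposited count table (GRCm38), and 51 of 54 equal those of GENCODE M21. Exons of 22 members overlap another gene, and only some of these overlaps are named above. No 2 libraries agreed within sampling noise (lowest chi-square per degree of freedom 55.9). Same-numbered libraries did not deviate together (correlations 0.02, -0.15 and -0.35), so no pairing was used.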

Additional observations from a re-analysis of the deposited data

How the results depend on the processing

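Calls among the 52 members tested depended on control 3 and AMH 3. Eif2s3y and Eif4ebp3 did not pass the count filter. Eif5a2 and Eif3j2 rest on few counts, and the lists of turned signs below leave them out. With oocyte-marker scaling all 14 eIF3 genes were positive, Eif3j2 among them. With the cumulus covariate 1 of 5 late factors was positive, Eif6 in place of Eif5a2. Called members, 0 higher and 0 lower with edgeR, were 12 and 1 with DESeq2 and 21 and 12 without control 3 and AMH 3 together. Leaving out 1 library gave 0 to 19 higher and 0 to 5 lower. The lowest adjusted p was 0.116 with edgeR, 0.0160 to 0.315 with 1 library left out, 0.00479 with DESeq2 and 0.0147 without control 3 and AMH 3. Members wholly below the controls numbered 7 (13.5%, against 23.3% of all genes), and 11 with upper-quartile scaling (21.2% against 28.0%), 0 with oocyte-marker scaling (0.747% of all genes), 17 without control 3 and AMH 3 (32.7% against 41.4%) and 7 to 15 with 1 library left out (13.5% to 28.8% against 24.3% to 35.1%). The members' median, 0.18, was 0.46 by total counts alone, -0.0315 with upper-quartile scaling, 0.0896 with the cumulus covariate, 0.94 with oocyte-marker scaling, 0.32 without both libraries and 0.10 to 0.32 with 1 left out. The cause was not tested. Signs turned under scaling by total counts alone for the late-factor median 0.0320, the eIF4G median 0.26, the kinase median 0.10, Eif1 0.22, Eif5a 0.0320, Eif6 0.26, Eif4g1 0.27, Eif4a2 0.0529, Eif3i 0.0959, Eif3e 0.23, Eif3j1 0.25, Eif2a 0.13, Eif4g2 0.19 and Eif4a3 0.24. Signs turned under oocyte-marker scaling for the late-factor median 0.50, the eIF4G median 0.74, the eIF4E median 0.32, the kinase median 0.55, Eif2b1 0.10, Eif1 0.68, Eif5a 0.50, Eif2ak1 0.0649, Eif5 0.37, Eif6 0.76, Eif2ak4 0.00627, Eif4e 0.35, Eif4g1 0.76, Eif4a2 0.50, Eif5b 0.11, Eif4e1b 0.29, Eif4g3 0.29, Eif2b3 0.42, Eif3i 0.55, Eif3e 0.76, Eif3j1 0.74, Eif2s2 0.21, Eif2a 0.59, Eif1b 0.24, Eif4g2 0.66, Eif4a3 0.72 and Dnajc3 0.0349. Signs turned under the cumulus covariate for Eif1 0.00984, Eif6 0.24, Eif4e1b 0.0307, Eif3e 0.28, Eif3j1 0.0790 and Eif1b 0.00800. Signs turned under upper-quartile scaling for Eif4a1 -0.11, Eif3a -0.0446 and Eif4b -0.0183. Signs turned under a filter of 5 CPM in 3 libraries for the eIF4G median 0.0142, Eif6 0.0105, Eif4g1 0.0301 and Eif3j1 0.00982. Eif6 and Eif4g1 were 0.00127 and 0.00303 on log2(FPKM + 1), filtered or not, and 0.00155 and 0.00270 on log2(FPKM + 0.1). Eif4g1 was 0.0117 with RLE scaling, 0.0136 with DESeq2 and 0.18 without control 3 and AMH 3, where the eIF4G median was 0.0246. With 1 library left out, Eif4a1 ran from -0.0197 to 0.19, Eif6 from -0.16 to 0.0654, Eif4g1 from -0.15 to 0.0592, Eif3e from -0.22 to 0.0589, Eif3j1 from -0.0933 to 0.00318 and the log2 ratio of Eif4e1b over Eif4e from -0.27 to 0.0861. These are log2 fold changes of AMH over control, and the eIF4G median includes helicases and cofactors. The replicate block called 0 members (15 higher and 1 lower at an unadjusted p under 0.05, beside 17.6% and 7.11% of all genes), left the median at 0.18 and changed no call. The cumulus covariate, oocyte-marker scaling and the removal of both libraries were chosen after seeing the data. Where 1 library was left out, its group kept 2, and the spread was pooled over both groups.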

Other observations

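The libraries kept a like order in most members whose groups did not overlap. Among the 21 with AMH above control, control 2 was the lowest control in 17, control 3 the highest control in 20 and AMH 3 the lowest AMH library in 20. Over all 5080 tested genes of that kind the shares were 82.3%, 82.4% and 73.1%. Among the 7 with AMH below control, control 3 was the lowest control in 7 and AMH 3 the highest AMH library in 6, where all 4392 such genes gave 79.7% and 74.9%. Of 9 processed pseudogenes with Eif names, Eif4a-ps4 held 36209 counts over the 6 libraries and the next, Eif1-ps1, held 242.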
